A study of Mus musculus with 12 samples.

Results

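Plet1, Anxa8 and Cldn1 are 3 genes known from injured and regenerating colon epithelium. They were chosen by name, with their values in DSS and Control libraries in view, and all 3 are among the 912 features listed for those groups, of 991 features listed in any file of the series. The DSS-BXD-L files, with 8 features, and the DSS-BXD-H files, with 95, do not list any of the 3, so the decoction groups give no value for them. The DSS mice drank 2.5% dextran sulfate sodium, a polysaccharide that injures the colon lining, in 3 rounds of 5 days, with 5 days of ordinary water after each. Control mice were given ddH2O. RNA of whole colon tissue was sequenced, in 3 libraries per group. Strain, age and sex are not given in the labels, nor whether the libraries stem from different mice, so the SDs and p-values below describe these libraries, and their spread may be technical.

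When the colon lining is injured, epithelial cells at the wound edge spread over the gap, and crypt cells switch to a repair state that shares genes with the fetal gut. Plet1 encodes a surface glycoprotein of progenitor cells in several mouse epithelia; in mouse colon it is induced by interleukin 17 and takes part in repair. Anxa8 encodes an annexin, a protein that binds phospholipid membranes when calcium is present, and is otherwise best known from stratified epithelia. Cldn1 encodes claudin 1, a four-pass membrane protein of tight junctions that is scarce in healthy colon surface epithelium.

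Plet1 (ENSMUSG00000032068) lies on the plus strand of chromosome 9 from 50494525 to 50505482, Anxa8 (ENSMUSG00000021950) on the plus strand of chromosome 14 from 34085981 to 34100571, and Cldn1 (ENSMUSG00000022512) on the minus strand of chromosome 16 from 26356642 to 26371841 (mm10). Each has 2 annotated transcripts, and the joined exons measure 1947, 1880 and 4841 bases in that order. The 250 bases before the RefSeq start of each gene (GRCm38.p6) are shown because the 3 genes were all higher in DSS and their upstream sequences can be compared directly. Capitals mark matches to the searched motifs and a run that the Plet1 and Anxa8 sequences share. They cover chr9:50494275-50494524, chr14:34085729-34085978 and chr16:26371840-26372089, each read 5′ to 3′ on the strand of its gene.
Plet1: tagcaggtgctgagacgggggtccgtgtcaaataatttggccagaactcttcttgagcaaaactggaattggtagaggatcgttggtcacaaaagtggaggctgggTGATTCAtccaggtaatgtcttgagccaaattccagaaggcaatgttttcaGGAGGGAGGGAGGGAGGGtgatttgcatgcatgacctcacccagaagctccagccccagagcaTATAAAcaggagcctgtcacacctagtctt
Anxa8: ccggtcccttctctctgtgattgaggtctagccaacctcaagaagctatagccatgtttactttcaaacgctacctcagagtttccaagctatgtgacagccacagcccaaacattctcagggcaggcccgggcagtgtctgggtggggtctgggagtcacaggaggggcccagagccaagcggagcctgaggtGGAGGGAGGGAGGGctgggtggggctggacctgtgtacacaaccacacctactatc
Cldn1: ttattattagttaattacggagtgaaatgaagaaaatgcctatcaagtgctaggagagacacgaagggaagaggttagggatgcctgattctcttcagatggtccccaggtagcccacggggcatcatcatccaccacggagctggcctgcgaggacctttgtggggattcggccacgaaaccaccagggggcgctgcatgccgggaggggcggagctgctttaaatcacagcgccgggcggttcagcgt
The Plet1 sequence holds 1 match to the AP-1 letters TGANTCA, 144 bases before the start, and 1 match to the TATA letters TATAAA, 30 bases before it. Among all 32851 promoter windows of this length, 6.75% hold the AP-1 letters and 12.4% the TATA letters on either strand. The Anxa8 and Cldn1 windows hold neither. None of the 3 windows holds the TEAD letters GGAATG (12.6% of all windows), the STAT letters TTCNNNGAA (7.02%) or an NF-kB motif (7.25%). The longest run shared by Plet1 and Anxa8 is 14 bases of repeated GGAG and GGGA units, seen once in Anxa8, 56 bases before the start, and in 2 overlapping positions in Plet1, from 93 and 89 bases before the start. That run is found in 64 windows (0.195%). The longest run that Cldn1 shares is 7 bases with Plet1 and 8 bases with Anxa8. These are matches of letters, found after the genes had been chosen, and are not binding sites.

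For 2 libraries the labels conflict: the descriptions speak of DSS for Control replicate 3 and of the decoction for DSS replicate 3, against titles and treatment labels. Both libraries were grouped by title, and the differences of the 3 genes without them are given beside the results. Depth, worked out from the steps between low values, came to 15.4 to 19.2 times 1000000 fragments per DSS library and 14.4 to 16.7 times 1000000 per Control library. The listed features are a selection that separates the groups: each differs by at least 1.87-fold in mean, and in 868 of the 912 (95.2%) the 3 DSS libraries lie all above or all below the 3 Control libraries. A difference of the 3 genes between DSS and Control is therefore a property of the list and of their choice, and is described here without a test. For other listed genes limma adjusted p-values are given below as description. Of the 572 features tested on the same list 570 (99.7%) passed at 0.05, so a pass says little about a single gene.

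Plet1 was scarce in Control colon and well detected in DSS colon. It stood at 36.22, 48.43 and 81.47 FPKM in DSS replicates 1 to 3, against 3.57, 1.02 and 1.68 FPKM in Control replicates 1 to 3. FPKM counts the fragments of a gene relative to its length in kilobases and to every 1000000 fragments of the library. The groups did not overlap, and the lowest DSS library was 10.1 times the highest Control library. Plet1 averaged 55.4 ± 23.4 FPKM in DSS and 2.09 ± 1.32 FPKM in Control (mean ± SD here and below, n = 3 per group), a 26.5-fold difference of means and 4.19 ± 0.48 (SE) on the log2(FPKM + 1) scale. By fold of means it ranked 16 among the 912 features, and by log2 change 5. The values correspond to about 1087 to 3039 fragments per DSS library and 33 to 100 per Control library, if the authors divided by the annotated exon length. Without Control replicate 3 and DSS replicate 3 the log2 difference was 3.82.

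Anxa8 was the most abundant of the 3 genes in both groups. Its values were 95.23, 157.4 and 104.45 FPKM in DSS replicates 1 to 3, against 37.67, 28.8 and 18.26 FPKM in Control replicates 1 to 3. Every DSS library lay above every Control library, by 2.53 times at the closest pair. The means were 119 ± 33.6 FPKM in DSS and 28.2 ± 9.72 FPKM in Control, a 4.21-fold difference and 2.06 ± 0.37 (SE) on the log2(FPKM + 1) scale. Anxa8 thus had a smaller fold than Plet1 but a larger gain in FPKM, 90.8 against 53.3, and ranked 30 of the 912 features by gain where Plet1 ranked 53. By mean level it ranked 36 in DSS and 58 in Control. Without Control replicate 3 and DSS replicate 3 the log2 difference was 1.86.

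Cldn1 had the lowest mean FPKM of the 3 genes in both groups. It was measured at 4.11, 4.84 and 4.51 FPKM in DSS replicates 1 to 3, against 0.63, 1.2 and 1.2 FPKM in Control replicates 1 to 3. The DSS libraries lay close together, and the lowest of them was 3.43 times the highest Control library. Means were 4.49 ± 0.366 FPKM in DSS and 1.01 ± 0.329 FPKM in Control, a 4.44-fold difference and 1.46 ± 0.15 (SE) on the log2(FPKM + 1) scale. Because its transcript is long, Cldn1 still rested on about 307 to 418 fragments in DSS and 44 to 97 in Control. Leaving out Control replicate 3 and DSS replicate 3 gave a log2 difference of 1.53. In all 3 genes the DSS libraries lay above the Control libraries, as in 706 of the 912 features (77.4%). RNA of whole tissue cannot tell more cells that express a gene from more RNA per cell.

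**Figure D1:**
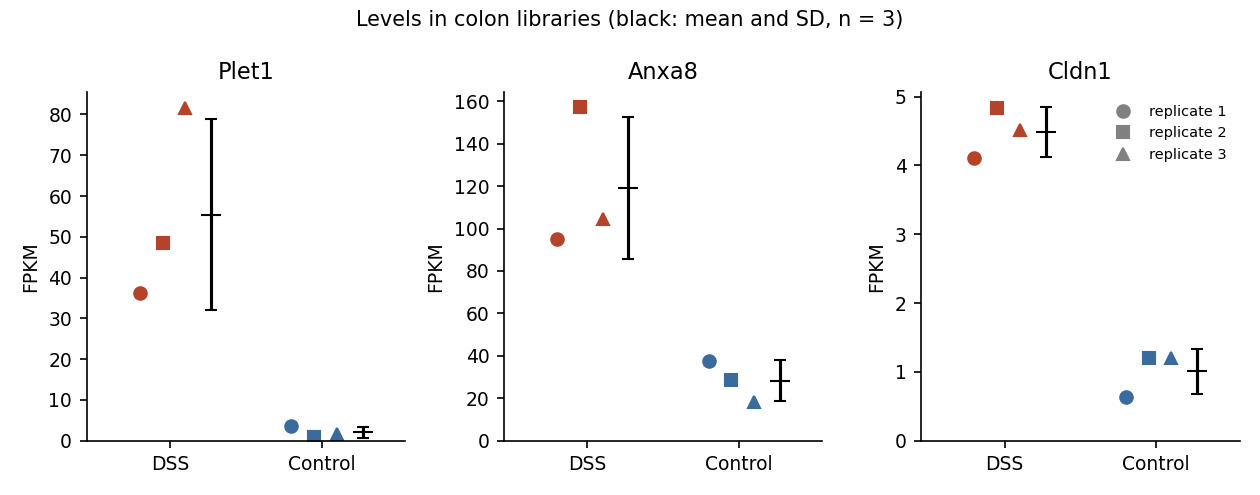
FPKM of Plet1, Anxa8 and Cldn1 in each library, with DSS left of Control, symbols for the replicate number and black bars for mean and SD (n = 3). The groups do not overlap in any panel, and the 3 vertical axes differ: the DSS means are 55.4, 119 and 4.49 FPKM.

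**Figure D2:**
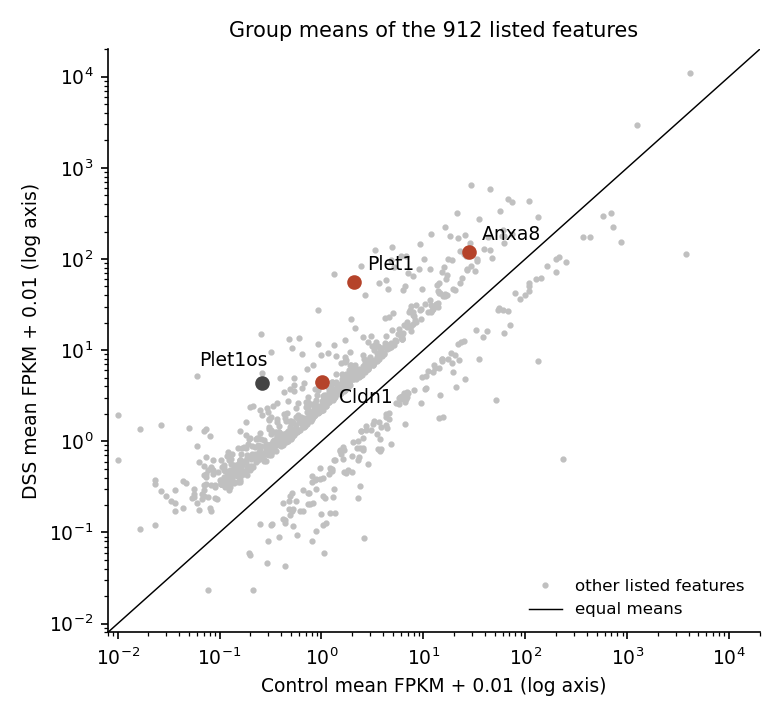
Mean FPKM in DSS against mean FPKM in Control for the 912 listed features, both on log axes with 0.01 added; the line marks equal means. The empty band along the line reflects the selection of the list, in which every feature differs by at least 1.87-fold; Plet1 stands at 26.5-fold, its antisense neighbour Plet1os at 17.4-fold, and Anxa8 and Cldn1 at 4.21- and 4.44-fold.

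By mean FPKM, which is per length of gene, the order of levels was Anxa8, Plet1, Cldn1 in both groups. In each DSS library Anxa8 was highest, Plet1 next and Cldn1 lowest. In Control, Anxa8 was again highest in every library, while Plet1 lay above Cldn1 in replicates 1 and 3 (3.57 against 0.63 and 1.68 against 1.2 FPKM) and below it in replicate 2 (1.02 against 1.2 FPKM). The Control means of Plet1 and Cldn1, 2.09 ± 1.32 and 1.01 ± 0.329 FPKM, differed by less than the SD of Plet1.

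Ratios within a library show how the 3 genes moved against each other, and scaling of a library cancels out of them. The ratio of Plet1 to Anxa8 was 0.38, 0.308 and 0.78 in DSS replicates 1 to 3, against 0.0948, 0.0354 and 0.092 in Control replicates 1 to 3. All DSS ratios lay above all Control ratios, by 3.25 times at the closest pair. For Plet1 over Cldn1 they were 8.81, 10.0 and 18.1 in DSS, against 5.67, 0.85 and 1.4 in Control. These did not overlap either, with 1.56 times between the closest libraries, of which the Control one was replicate 1. The ratio of Anxa8 to Cldn1 overlapped, at 23.2, 32.5 and 23.2 in DSS and 59.8, 24.0 and 15.2 in Control. On the log2(FPKM + 1) scale the change of Plet1 exceeded that of Anxa8 by 2.13 ± 0.51 (SE) and that of Cldn1 by 2.73 ± 0.58 (SE). Anxa8 exceeded Cldn1 by 0.60 ± 0.45 (SE), a gap that was 0.0038 with 0.1 added in place of 1 and −0.096 with 0.01 added, because the added 1 shrinks the change of a gene near 1 FPKM. Without Control replicate 3 and DSS replicate 3, Plet1 exceeded Anxa8 by 1.96 and Cldn1 by 2.29, and Anxa8 exceeded Cldn1 by 0.33. Plet1 thus changed more than both others in each of these settings, and the data do not order Anxa8 and Cldn1.

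**Figure D3:**
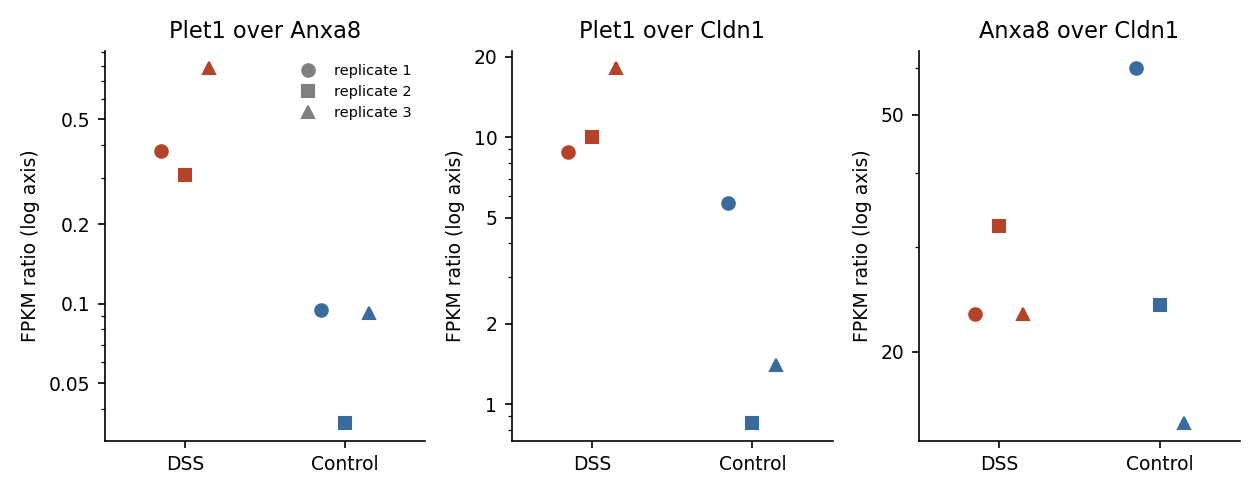
FPKM ratios of the 3 gene pairs in each library on log axes, DSS left of Control, with symbols for the replicate number. DSS and Control separate for both ratios that hold Plet1 and overlap for Anxa8 over Cldn1, where Control replicate 1 has the highest value, 59.8.

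Within DSS, Plet1 peaked in another library than Anxa8 and Cldn1. Plet1 was highest in DSS replicate 3, 0.63 above the group mean on the log2(FPKM + 1) scale, and lowest in replicate 1, at −0.52. DSS replicate 3 is the library whose description speaks of the decoction, and whether this bears on its values was not tested. Anxa8 and Cldn1 were highest in replicate 2, by 0.44 and 0.092, and lowest in replicate 1. For Cldn1 this peak is slight, with 4.84 FPKM in replicate 2 and 4.51 FPKM in replicate 3 (about 390 and 418 fragments). Of the 455 features that rose in DSS by limma's moderated test, 294 (64.6%) were highest in DSS replicate 2, like Anxa8 and Cldn1, and 31 (6.81%) in replicate 3, like Plet1. These counts include the 3 members themselves, for which the call is no test. Of those 31 features 17 were immunoglobulin segments. The other 14, among them Plet1, Plet1os and Arg2, the gene of arginase 2, made up 3.53% of the 397 features that rose and were not immunoglobulin segments.

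Within Control, Plet1 and Anxa8 were highest in replicate 1, by 0.65 and 0.46 above the group mean, whereas Cldn1 was lowest there, at −0.29. The spread differed as well. Over the DSS libraries the coefficient of variation was 42.3% for Plet1, 28.2% for Anxa8 and 8.15% for Cldn1, beside a median of 27.2% over the 455 tested features with a higher DSS mean. Over the Control libraries it was 63.3%, 34.4% and 32.6% for the same genes, beside a median of 21.0%. The Control values rest on about 33 to 100 fragments for Plet1, 44 to 97 for Cldn1 and 557 to 1019 for Anxa8. The part of counting error in the spread was not tested.

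**Figure D4:**
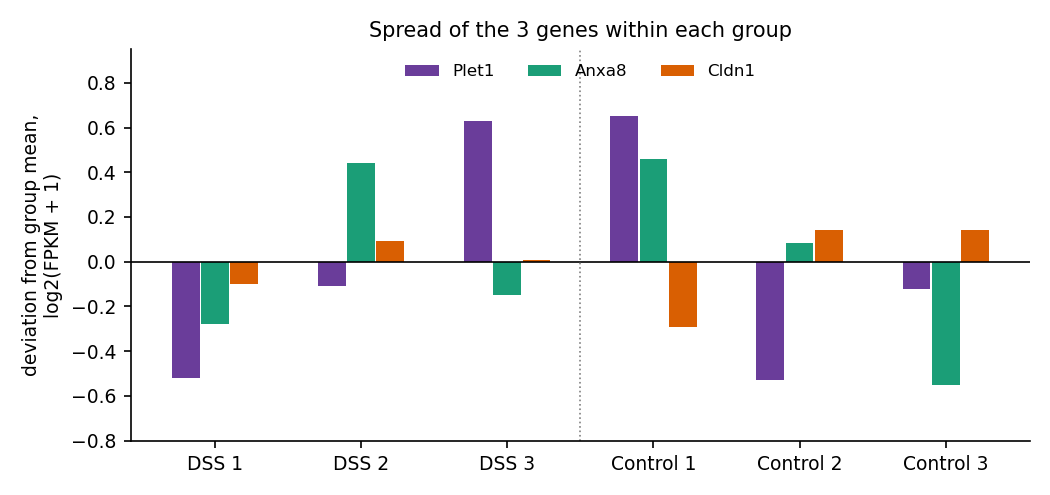
Deviation of each library from the mean of its own group, in log2(FPKM + 1), for Plet1, Anxa8 and Cldn1, with the DSS libraries left of the Control libraries. Plet1 is highest in DSS replicate 3 (0.63) and Anxa8 in DSS replicate 2 (0.44), while the DSS bars of Cldn1 lie between −0.10 and 0.092.

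Libraries also differed in the markers of other cells. The summed level of the 11 listed fibroblast genes, of 15, was 603 to 1174 FPKM in DSS and 214 to 263 FPKM in Control, and that of the 8 listed leukocyte genes, of 21, was 8784 to 13078 FPKM in DSS and 3801 to 4524 FPKM in Control. Nearly all of the leukocyte sum is Igkc, the constant segment of the immunoglobulin kappa chain, at 8729 to 13008 FPKM in DSS and 3772 to 4500 FPKM in Control. The other 7 leukocyte genes summed to 70.1, 85.3 and 55.1 FPKM in DSS replicates 1 to 3, against 23.6, 29.6 and 22.5 FPKM in Control replicates 1 to 3. Within DSS the fibroblast sum and that of the 7 leukocyte genes were lowest in replicate 3, where Plet1 was highest, and highest in replicate 2, where Anxa8 and Cldn1 were highest. Single genes differed in this. Col1a1, Col1a2 and Col3a1 were lowest in DSS replicate 1, and the other listed fibroblast genes in replicate 3. Of the 7 leukocyte genes 5 were lowest in DSS replicate 3, whereas Trac and Cd4, both T cell genes, were lowest in replicate 2. Trac, Cd4, Cd68 and Cx3cr1 were highest in DSS replicate 1, and Csf3r, S100a8 and Ccr2 in replicate 2. The high sum of the 7 leukocyte genes in replicate 2 rests on S100a8, a neutrophil gene. S100a8 had 24.43 FPKM there, against 2.9 and 1.5 FPKM in DSS replicates 1 and 3. The description of DSS replicate 3 speaks of the decoction, as given above. The summed level of the 13 listed absorptive colonocyte genes, of 37, was 435 to 857 FPKM in DSS and 1203 to 1751 FPKM in Control, with the highest DSS value in replicate 3 and the lowest in replicate 2. Within DSS, Slc26a3, Slc26a2 and Slc20a1 were highest in replicate 1, Slc4a4 and Clca4b in replicate 2, and the rest in replicate 3. Car4 made up 369.04 FPKM of the sum in replicate 3. Clca4b, which was higher in DSS than in Control, made up 185.09 FPKM of the sum in replicate 2. The part of cell composition in the levels of the 3 genes was not tested. None of 15 general epithelial markers, such as Epcam and Cdh1, is among the listed features, so the share of epithelium in each library was not analysed here. The listed colonocyte genes include Car4 and Slc26a3, a carbonic anhydrase and an anion exchanger of colon surface cells, at 224 ± 148 and 71.3 ± 30.7 FPKM in DSS and 728 ± 132 and 198 ± 41.1 FPKM in Control.

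Anxa8 and Cldn1 are also genes of squamous epithelium, which borders the colon at the anus. Of 31 squamous markers only Krt14, a keratin of the basal layer, is listed. It had 0.66, 3.69 and 0.92 FPKM in DSS replicates 1 to 3, against 0.2, 0.41 and 0.28 FPKM in Control replicates 1 to 3. Krt14 was below the filter on low values. It was highest in DSS replicate 2, like 294 (64.6%) of the 455 features that rose in DSS, Anxa8 and Cldn1 among them. The part of squamous cells in the levels of Anxa8 and Cldn1 was not tested. The other 30 markers were not analysed here.

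An antisense gene overlaps Plet1, which complicates the values of both. Plet1os (ENSMUSG00000101304) spans the whole of Plet1 on the minus strand, from 50488795 to 50507823 on chromosome 9. It shares 261 exon bases with Plet1, 13.4% of the Plet1 exons, out of 1245 exon bases of its own. Plet1os is itself listed, at 3.28, 2.48 and 7.28 FPKM in DSS replicates 1 to 3, against 0.49, 0.17 and 0.09 FPKM in Control replicates 1 to 3. Like Plet1 it was highest in DSS replicate 3, and its groups did not overlap. Its mean was 4.35 ± 2.57 FPKM in DSS and 0.25 ± 0.212 FPKM in Control, a 17.4-fold difference that rests on about 2 to 9 fragments per Control library. Relative to Plet1 its level was 9.06, 5.12 and 8.94% in DSS and 13.7, 16.7 and 5.36% in Control, which overlap. The sources used here do not give the strand setting, so reads of Plet1 and Plet1os on the shared bases cannot be told apart. Plet1os came to about 63, 51 and 174 fragments in DSS replicates 1 to 3, beside about 1087, 1568 and 3039 for Plet1. Shared reads thus weigh more on Plet1os than on Plet1, and the part of Plet1 reads in the level of Plet1os was not tested. Over Anxa8 lies A630023A22Rik on the opposite strand, which shares 0 exon bases with it, and Cldn1 has no overlapping gene in the annotation.

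Features with the most similar profile were sought by the root mean square difference of log2(FPKM + 1) over the 6 libraries, after the mean of each gene over those libraries had been subtracted. Low values mean similar profiles. For Plet1 the 5 nearest of the 572 tested features were the immunoglobulin variable segments Ighv1-39 (0.43), Igkv13-84 (0.56), Igkv8-28 (0.71) and Ighv1-22 (0.74) and the chloride channel regulator gene Clca4b (0.73). Clca4b was the single listed absorptive colonocyte gene that was higher in DSS, at 46.26, 185.09 and 91.58 FPKM in DSS replicates 1 to 3, against 5.03, 4.97 and 8.1 FPKM in Control replicates 1 to 3 (log2 change 3.76, SE 0.48, limma adjusted p = 0.000927). Near-identical immunoglobulin segments can share reads, so their single values are uncertain.

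For Anxa8 the nearest were Cwh43 (0.24), Capg (0.26), an actin-capping protein gene, Col18a1 (0.28), a collagen of basement membranes, the unmatched feature ENSMUSG00000120788 (0.30) and the segment Igkv5-43 (0.30). Cwh43, the nearest, stood at 10.53, 18.11 and 9.61 FPKM in DSS replicates 1 to 3, against 2.17, 1.52 and 1.35 FPKM in Control replicates 1 to 3. For Cldn1 they were Vstm4 (0.13), Bgn (0.16), the proteoglycan biglycan, Ffar4 (0.18), a receptor of long-chain fatty acids, Clec4a1 (0.18), a lectin of myeloid cells, and Loxl1 (0.19), an enzyme that cross-links elastin and collagen. Its nearest, Vstm4, was at 4.42, 4.62 and 4.2 FPKM in DSS and 0.99, 1.27 and 1.5 FPKM in Control.

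No feature is in the nearest 5 of more than 1 of the 3 genes. The members were not each other's closest. Anxa8 and Cldn1 were 0.54 apart, and of the 570 other tested features 93 lay nearer to Anxa8 than Cldn1 did and 382 nearer to Cldn1 than Anxa8 did. Plet1 and Anxa8 were 1.18 apart, with 32 features nearer to Plet1 and 444 nearer to Anxa8. Plet1 and Cldn1 were 1.48 apart, with 87 features nearer to Plet1 and 540 nearer to Cldn1. The measure weighs the size of the DSS difference most, and the nearest 5 changed with the pseudocount and with single libraries, with as few as 1 of 5 kept.

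Other genes of epithelial injury and repair were mostly outside the listed features. Of a list of 50 such genes 7 were listed and 6 passed the filter on low values, the 3 members among them. The remaining 3, Slpi, Plaur and Basp1, rose in DSS, beside 79.5% of all 572 tested features that rose, 20.1% that fell and 99.7% that did either, so the count says nothing particular about the list. Slpi, a secreted protease inhibitor, stood at 38.87, 61.25 and 49.75 FPKM in DSS replicates 1 to 3, against 5.01, 6.66 and 7.89 FPKM in Control replicates 1 to 3 (log2 change 2.76, SE 0.31, limma adjusted p = 0.000566). Plaur, the urokinase receptor, averaged 5.95 ± 2.49 FPKM in DSS and 2.01 ± 0.603 FPKM in Control (log2 change 1.15). Basp1, a membrane-bound protein gene, averaged 8.98 ± 2.89 FPKM in DSS and 4.02 ± 0.422 FPKM in Control (0.96). Mmp7, the epithelial protease matrilysin, was below the filter, at 0.12, 3.04 and 1.03 FPKM in DSS and 0, 0 and 0.12 FPKM in Control. The median log2 change of Slpi, Plaur and Basp1 was 1.15, beside 0.96 over all tested features. Of 36 target genes of YAP, a transcriptional coactivator active in gut repair, 0 were listed, so that programme was not analysed here.

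Within their own families the members stood nearly alone in the list. Of 27 claudin genes 2 were listed, Cldn1 and Cldn5, a claudin of endothelium, which rose, at 5.09 ± 1.89 FPKM in DSS and 2.21 ± 0.589 FPKM in Control (log2 change 0.90, limma adjusted p = 0.00925). Unlike Cldn1, Cldn5 was highest in DSS replicate 1 (7.24 FPKM). Of 18 other tight junction genes 0 were listed, and of 12 annexin genes Anxa8 alone. Of 18 genes of LY6 proteins, GPI-anchored proteins and other epithelial surface proteins 4 were listed: Plet1, Plaur, and 2 that also rose, Cd55, a membrane inhibitor of complement, at 29.8 ± 4.78 FPKM in DSS and 13.9 ± 2.82 FPKM in Control (log2 change 1.06), and Prom1, a protein of membrane protrusions, at 39.3 ± 12.2 FPKM in DSS and 16.4 ± 1.36 FPKM in Control (1.17). Without Control replicate 3 and DSS replicate 3, Prom1 did not pass (log2 change 1.14, limma adjusted p = 0.0516).

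Of 20 crypt stem cell and WNT target genes 3 were listed and tested. Ascl2 and Axin2 fell, beside 20.1% of all tested features, and Prom1 rose, beside 79.5%. The rise of Prom1 did not pass without Control replicate 3 and DSS replicate 3 (limma adjusted p = 0.0516), nor when libraries were aligned on their median listed feature (limma adjusted p = 0.141). Of the 572 tested features 433 were called higher in the former setting and 113 in the latter. Ascl2, a transcription factor of LGR5-positive stem cells, had 0.88, 0.85 and 0.68 FPKM in DSS replicates 1 to 3, against 2.27, 3.92 and 5.35 FPKM in Control replicates 1 to 3 (log2 change −1.38, SE 0.25, limma adjusted p = 0.00273). Axin2, a feedback inhibitor of WNT signalling, averaged 3.64 ± 0.395 FPKM in DSS and 8.06 ± 2.05 FPKM in Control (log2 change −0.94). In Control, Ascl2 was lowest in replicate 1, the library in which Plet1 and Anxa8 were highest.

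Without Control replicate 3 and DSS replicate 3, the log2 change was 2.88 for Slpi, 3.97 for Clca4b, 0.96 for Cldn5, −1.10 for Ascl2 and −0.80 for Axin2. All 5 still passed, among 433 features called higher and 77 called lower in that setting.

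When libraries were aligned on their median listed feature, all log2 changes dropped by 0.65, since most listed features are higher in DSS. The members then stood at 3.55 for Plet1, 1.41 for Anxa8 and 0.81 for Cldn1. Slpi still passed, while Plaur (0.51), Basp1 (0.31), Cldn5 (0.25), Cd55 (0.41) and Prom1 (0.52) did not. Of the 572 tested features 113 were called higher and 117 lower after centring, against 455 and 115 before it. Most features that rose thus no longer passed, and a failure says little about a single gene.

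**Figure D5:**
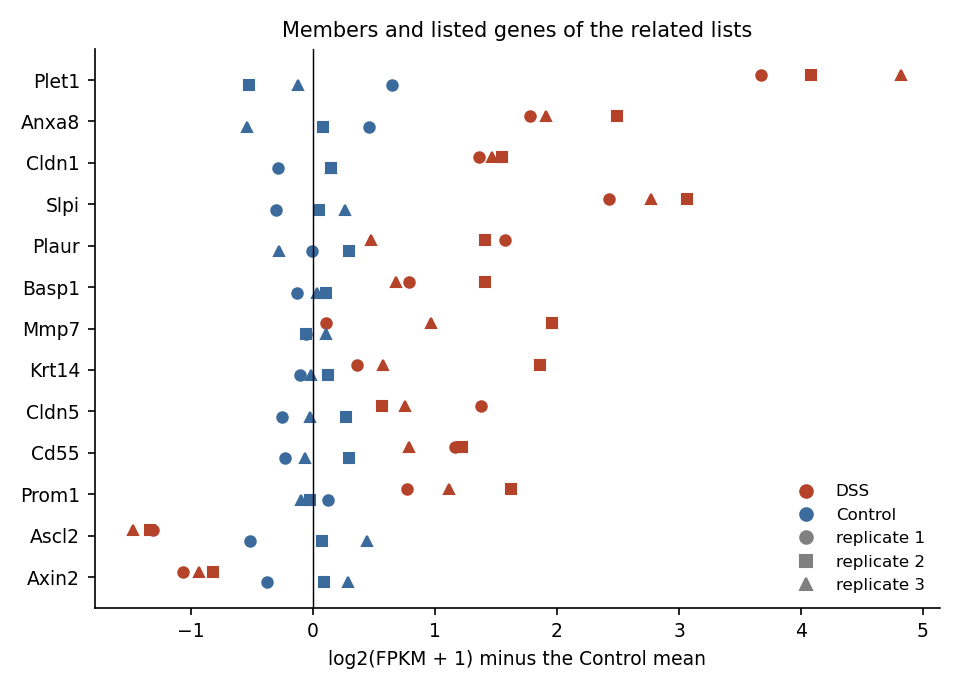
Values of each library as log2(FPKM + 1) minus the Control mean, for the 3 members and the other listed genes of the lists on injured epithelium, squamous epithelium, claudins, surface proteins and crypt stem cells, with DSS drawn above Control in each row and symbols for the replicate number. Plet1 lies farthest to the right (log2 change 4.19), Ascl2 and Axin2 lie to the left, and in Mmp7 the groups touch.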

How the data were processed

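Each file holds 1 library, and per the file headers its values are FPKM. RNA was extracted with TRIzol and per the labels' protocols a NEBNext Ultra kit was used for the libraries. The submitters' processing notes name the build mm10 and the tools fastp, bcl2fastq and FastQC, with no versions. Not given in the sources used here are the aligner, the counting program, the strand setting, the annotation and how the listed features were selected. The deposited FPKM are scaled by the authors to gene length and library total, not to composition.

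Identifiers were matched to GENCODE M21 (981 of 991 features), whose GRCm38 is the build of mm10. Promoter sequences are RefSeq's, GRCm38.p6 (3 of 3 genes matched). Library totals were recovered by scanning 5 to 30 times 1000000 fragments for the lowest total at which FPKM of genes with exons under 1200 bases came out as whole fragments, allowing for rounding, up to 0.2 fragments. The chosen totals made 77.3 to 90.3% of the 69 to 103 usable genes whole, and the next best 40.0 to 49.2%. The totals assume the annotated exon lengths.

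The members and lists were chosen with earlier results of these data known. Members are described without a test, although the counts of called features include them. SEs of members and of their differences come from the values of those genes alone. SEs of other genes are limma's, which draw on the spread of all tested features. On that basis they would be 0.4 for Plet1, 0.38 for Anxa8 and 0.2 for Cldn1. For all features, log2(FPKM + 1) was tested with limma 3.58.1 (R 4.3.3, trended spread, two-sided, Benjamini-Hochberg, threshold 0.05) on the 6 DSS and Control libraries, for features with at least 1 FPKM in 3 or more. 572 of 912 features, all 3 members included, passed that filter. The fit was tested on simulated data. Named were the members, their 5 nearest profiles and listed genes of 8 related lists; Plet1os, Arg2 and marker genes were named after their values were seen. No 2 libraries of a group had more than 25 equal values, so none was taken as a copy. The test planned for decoction groups was not run, since their files do not list the members.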

Additional observations from a re-analysis of the deposited data

How the results depend on the processing

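Leaving out each library in turn gave log2 differences, DSS minus Control, of 3.88 to 4.52 for Plet1, 1.79 to 2.29 for Anxa8 and 1.32 to 1.53 for Cldn1. The lead of Plet1 ranged from 1.74 to 2.41 over Anxa8 and from 2.40 to 3.20 over Cldn1, and Anxa8 exceeded Cldn1 by 0.25 to 0.97. Smaller pseudocounts raised low genes, by construction: Cldn1 stood at 2.09 (0.1) and 2.20 (0.01), Plet1 at 4.83 (0.01), and Anxa8 minus Cldn1 at 0.0038 and −0.096. Centring gave 3.55, 1.41 and 0.81 for Plet1, Anxa8 and Cldn1, with 113 features higher, 1 injured-epithelium gene besides the members (Slpi) and 0 claudins besides Cldn1. Without the filter 714 features were higher, from 912 tested. The squamous gene Krt14 then passed, 1 of 31, and so did Mmp7, which made 4 injured-epithelium genes besides the members. Under the groups of the description text, 3 features were higher and 4 lower, with 0 genes of the injured-epithelium, claudin and crypt lists, and the cause was not tested. Single libraries left out gave 445 to 454 features higher and 88 to 111 lower, and 3 injured-epithelium, 1 claudin and 3 crypt genes each time. The nearest profiles were less stable: of 5 features, 2 to 5 were kept for Plet1, 1 to 5 for Anxa8 and 2 for Cldn1 as single libraries were left out, and 3, 1 and 1 with either smaller pseudocount. Whether replicate numbers pair the libraries was not settled. Deviations of same-numbered DSS and Control libraries correlated at −0.0515, 0.0215 and 0.0795, and those of other pairs at −0.128 to 0.104. Small correlations cannot show that libraries are unpaired. With the replicate number as a block 455 features were higher and 112 lower, and the counts in the gene lists were as in the fit without it. Plet1 in Control rests on 33 to 100 fragments and Plet1os on 2 to 9, which limits their folds.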
